A study of Mus musculus with 4 samples.

Results

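In F123-ESCs, 97 of the 24026 genes in the table were expressed mostly from the S129 allele and still had reads assigned to the CAST allele. F123-ESCs are an embryonic stem cell line from a male embryo of a cross between S129/Jae and Cast mice, so that each autosomal gene has 1 copy from each strain. The S129 chromosomes are maternal and the CAST chromosomes paternal. The reverse cross is not part of these data, so strain and parent of origin cannot be told apart. A gene was taken as S129-biased when its mean S129 level (S) and its mean CAST level (C) summed to at least 2 RPKM and S made up 85% to 98% of this sum, the S129 share. RPKM are reads per kilobase of gene, scaled to the reads of the library and allele. Symbols that start with Mir, Snor or Rnu were left out, which removed 15 genes, all of them miRNAs. The 97 genes were 0.812% of the 11946 genes with at least 2 RPKM. The genes were thus chosen by the mean levels of both alleles over all 4 libraries, so their shares are a description and carry no test.

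The data came from RNAseq of polyA-enriched RNA in 4 libraries, replicates 1 to 4, of untreated cells with the genotype S129/CAST. The cells had been grown on a layer of inactivated embryonic fibroblasts, were then moved to plates coated with gelatin without these feeder cells, and were harvested after about 48 h. Reads were given to an allele where they covered a SNP between the strains, and between 34120415 and 56627970 reads of both alleles together stood behind a library. All 4 libraries came from 1 cell line and the labels do not say whether they came from separate cultures. The p-values below for differences between alleles thus rest on the spread between these libraries, which may be technical. Those for differences between libraries rest on counting error alone.

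In a hybrid cell both alleles share the same nucleus and the same regulators, so a difference between them lies in cis, in the DNA sequence or in a mark that stays with the chromosome. Genomic imprinting is the known case in which the parent of origin decides which allele is active, and X-linked genes of a male cell have only the maternal copy. Allelic read counts also depend on how reads are placed, since a read from a retrocopy or a sister gene can be aligned to the wrong locus and so carry an SNP that is not one.

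Replicate 4 had the fewest reads and stood apart from the rest. Across genes, Pearson's r of log2(S + C + 0.1) was 0.988 to 0.990 between replicate 4 and the other libraries and reached 0.994 to 0.996 among these. Markers of embryonic stem cells, a list of 17 genes, all had at least 2 RPKM, with a sum over both alleles of 18290 to 21160 RPKM. Of 16 markers of feeder fibroblasts, 13 had at least 2 RPKM, and their sum was 459 to 572 RPKM, of which 238 to 299 RPKM came from S129 and 221 to 273 RPKM from CAST. Twist1 was listed at 0. The median S129 share of these 13 markers was 53.9%, from 38.6% to 79.3% for Thy1, and none was S129-biased by the rule. Their part in the results was not tested.

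**Figure D1:**
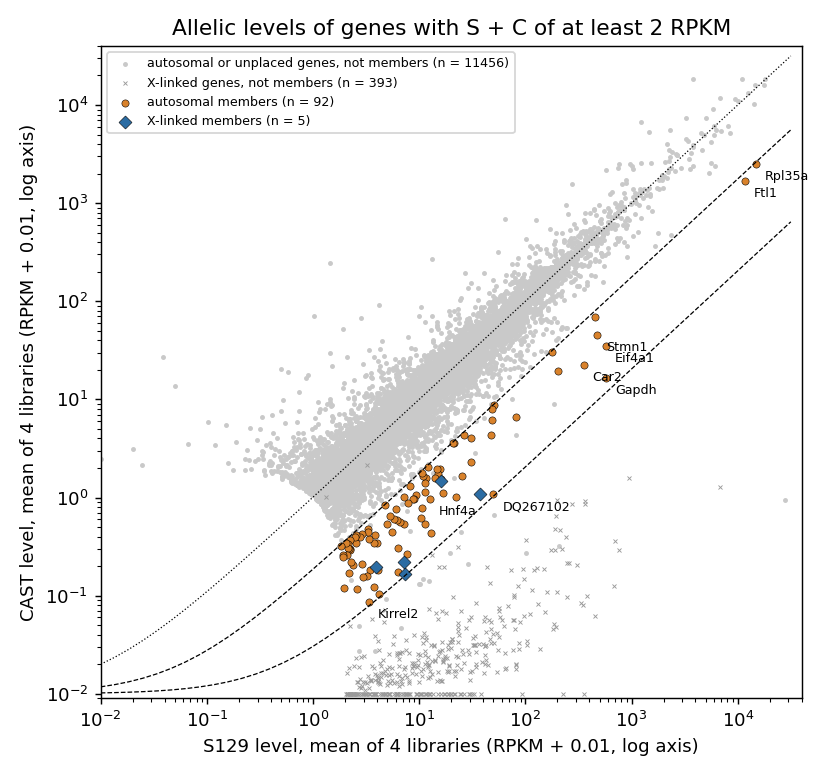
Mean S129 level against mean CAST level over 4 libraries, in RPKM plus 0.01 on log axes, for the 11946 genes with S + C of at least 2 RPKM. Orange points are the 92 autosomal and blue diamonds the 5 X-linked S129-biased genes, grey marks are all other genes, the dotted line is an S129 share of 50% and the dashed lines are 85% and 98%. The biased genes lie between the dashed lines from 2.05 to 17254 RPKM, below the cloud of genes with similar levels of both alleles and above most X-linked genes.

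The 97 genes were mostly lowly expressed, and 9 of them were strongly expressed. Their median S + C was 7.65 RPKM, against 19.3 RPKM for all genes with at least 2 RPKM. Of the biased genes, 55 (56.7%) were under 10 RPKM, against 33.0% of all. At the upper end, 9 genes (9.28%) reached 100 RPKM, against 16.3% of all. These levels rest only on reads that cover a SNP, so that they also depend on how many SNPs a gene holds. The median S129 share was 90.4%, and the S129 level was 5.74 to 47.0 times the CAST level, with a median of 9.43. A bias of the same size towards CAST was found for 70 genes, with a median S + C of 8.89 RPKM.

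By the annotation, 69 of the 97 genes (71.1%) were protein-coding, against 93.0% of all genes with at least 2 RPKM. Another 9 were antisense RNAs and 9 were long intergenic RNAs. The remainder were 3 processed transcripts, 4 pseudogenes, 1 bidirectional long non-coding RNA, the snoRNA DQ267102 and the ribozyme Rpph1. Between 1 and 9 genes were found on every autosome and 5 on the X chromosome. These were 0.254% of the genes with at least 2 RPKM on chromosome 19 and up to 1.25% on chromosome 6 and 1.26% on the X chromosome. Whether strand was used in counting is not given in the sources used here, so reads of the 9 antisense RNAs and of the genes they overlap cannot be told apart.

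Promoter sequences of 4 of the biased genes are shown first to let their content of CG dinucleotides be seen, 3 with few and Eif4a1 with a number near the median of expressed genes. CG dinucleotides are the sites of DNA methylation, and promoters dense in them, called CpG islands, are typical of genes active in many tissues. The sequences are from RefSeq, build GRCm38.p6, run from 250 bases before to 50 bases after the first listed start, and are those of the reference strain C57BL/6J, which is neither S129 nor CAST. Capitals mark the CG dinucleotides.
Hnf4a, chr2:163506607-163506906, plus strand: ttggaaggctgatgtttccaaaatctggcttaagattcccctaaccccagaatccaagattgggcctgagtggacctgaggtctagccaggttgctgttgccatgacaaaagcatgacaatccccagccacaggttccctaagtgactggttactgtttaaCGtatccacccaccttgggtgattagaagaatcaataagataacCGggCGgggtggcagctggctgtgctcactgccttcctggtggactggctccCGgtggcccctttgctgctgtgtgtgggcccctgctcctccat
Nlrp9b, chr7:20007773-20008072, plus strand: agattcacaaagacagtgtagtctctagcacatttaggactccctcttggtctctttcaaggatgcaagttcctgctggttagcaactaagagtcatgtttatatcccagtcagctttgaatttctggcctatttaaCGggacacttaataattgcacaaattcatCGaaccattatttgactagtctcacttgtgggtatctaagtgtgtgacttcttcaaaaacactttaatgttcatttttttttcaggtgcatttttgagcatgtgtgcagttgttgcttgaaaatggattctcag
Kirrel2, chr7:30457466-30457765, minus strand: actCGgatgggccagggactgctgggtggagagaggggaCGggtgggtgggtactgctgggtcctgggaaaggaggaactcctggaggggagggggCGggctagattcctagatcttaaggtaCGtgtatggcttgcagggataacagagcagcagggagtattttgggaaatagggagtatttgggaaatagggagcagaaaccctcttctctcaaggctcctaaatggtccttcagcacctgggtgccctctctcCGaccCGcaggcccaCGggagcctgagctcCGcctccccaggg
Eif4a1, chr11:69672374-69672673, minus strand: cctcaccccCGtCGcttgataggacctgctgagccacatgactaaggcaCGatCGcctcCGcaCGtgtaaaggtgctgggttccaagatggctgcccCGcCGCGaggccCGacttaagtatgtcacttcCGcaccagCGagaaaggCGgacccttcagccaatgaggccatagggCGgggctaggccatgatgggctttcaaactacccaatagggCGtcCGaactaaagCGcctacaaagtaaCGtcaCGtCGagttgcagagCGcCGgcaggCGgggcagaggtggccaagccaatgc
Hnf4a encodes a nuclear receptor of liver and gut epithelium, and its window held 4 CG. In that of Nlrp9b, a receptor of the innate immune system, there were 2. Kirrel2, an adhesion protein of the immunoglobulin superfamily, had 8, and Eif4a1, the RNA helicase of translation initiation, had 23.

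Of the 97 genes, 72 had a promoter in the RefSeq table, as did 9306 of all genes with at least 2 RPKM. The median was 7 CG per 300 bases in the biased genes, against 21 in all. At least 10 CG were found in 29 of the 72 promoters (40.3%), against 83.1% of all. The difference was also there among lowly expressed genes. Under 10 RPKM, 36.6% of 41 biased genes had at least 10 CG, against 72.9% of 2958 genes. For protein-coding genes alone, the shares were 39.2% of 51 and 83.9% of 8937. The 53 promoters of genes with the same bias towards CAST lay between, with a median of 10 CG and 52.8% with at least 10. The letters TATAAA, searched on both strands, were in 10 of the 72 promoters (13.9%) and in 6.79% of all. These are descriptions of the reference sequence and were not tested, and whether a promoter differs between S129 and CAST was not analysed here.

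**Figure D2:**
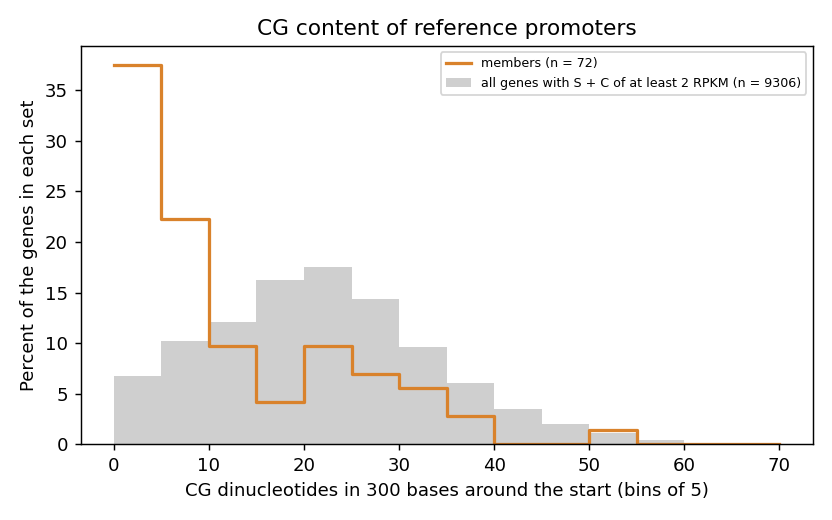
Number of CG dinucleotides in 300 bases around the start of transcription, in bins of 5, as percent of the genes in each set. The orange line is the 72 S129-biased genes with a promoter in the table and the grey bars are the 9306 such genes with at least 2 RPKM. The line is highest in the bins under 10 CG, and the bars are highest between 15 and 30 CG.

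The highest level was that of Rpl35a, a protein of the large ribosomal subunit, on chromosome 16 from 33056453 to 33060189 (mm10). Its S129 level was 14478, 12790, 12744 and 18919 RPKM in replicates 1 to 4, and its CAST level was 2539, 2344, 2260 and 2941 RPKM. All S129 values were above all CAST values, and both alleles were highest in replicate 4. The S129 share was 85.4% ± 0.89 (SD, n = 4). Chromosome 16 as a whole leaned to S129, with a median share of 61.8% over 371 genes, and the genes beside Rpl35a had shares of 60.4% (Iqcg) and 58.7% (Lmln). When the S129 to CAST ratio of each gene was divided by the median ratio of its autosome, Rpl35a no longer met the rule.

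Ftl1, the light chain of the iron store ferritin, came next. It was read at 10581, 11386, 11274 and 13491 RPKM from S129 and at 1648, 1627, 1539 and 1946 RPKM from CAST, which gave a share of 87.4% ± 0.61. Gapdh, an enzyme of glycolysis often taken as a reference gene, stood at 550, 614, 591 and 536 RPKM from S129 and at 15.7, 18.1, 18.1 and 14.5 RPKM from CAST. Its share was 97.2% ± 0.14. Its RPKM was divided by a length of 3289 bp, that of a transcript which keeps an intron, so that its level is understated relative to other genes, on both alleles alike.

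Eif4a1, whose promoter is printed above, had a share of 94.2% ± 0.093, the smallest SD of all 97 genes. From S129 it had 606, 629, 628 and 416 RPKM, and from CAST 36.4, 38.6, 38.7 and 26.1 RPKM. Both alleles were lowest in replicate 4 and kept their ratio. Stmn1, which binds tubulin and destabilises microtubules, had 523, 410, 438 and 537 RPKM from S129 and 51.1, 42.8, 35.7 and 52.7 RPKM from CAST, a share of 91.3% ± 0.83. Carbonic anhydrase 2 (Car2) had 362, 380, 352 and 320 RPKM from S129 and 20.2, 23.4, 25.96 and 20.0 RPKM from CAST, a share of 94.0% ± 0.66. It lies on chromosome 3, where the median share over 554 genes was 37.3%, so that it went against the lean of its chromosome. On the other autosomes the median lay between 45.6% and 53.3%, and why chromosomes 3 and 16 differ was not tested.

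Rpph1, the RNA component of RNase P, which trims the precursors of tRNA, differed more between libraries. Its S129 level was 493, 322, 319 and 673 RPKM, and its CAST level was 87.9, 59.6, 65.1 and 64.5 RPKM. S129 was highest in replicate 4 and CAST was not, so the share was 84.9%, 84.4%, 83.0% and 91.2%. Without replicate 4 the share was below 85% and the gene was outside the rule. Rpph1 RNA is made by RNA polymerase III and has no poly(A) tail, so its level in polyA-enriched RNA is not a measure of its abundance. The gene lies within 74 bp of Parp2 (52.6%) and overlaps Ccnb1ip1 (70.3%).

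The other highest genes were a dynein light chain, a protease inhibitor and a non-coding transcript. Dynlt1b had 201, 179, 157 and 270 RPKM from S129 and 20.7, 19.6, 14.6 and 23.8 RPKM from CAST. Spink1, an inhibitor of trypsin, had 198, 151, 149 and 206 RPKM from S129 and 32.2, 24.9, 29.3 and 36.3 RPKM from CAST, and its share of 85.2% was the lowest of the 97. The transcript AI662270 had 81.8 ± 6.51 RPKM from S129 and 6.59 ± 0.77 RPKM from CAST (SD, n = 4). Wfdc15a, named for its WAP domain, had 41.7 to 63.5 RPKM from S129 and 8.02 to 9.81 RPKM from CAST. In none of these did the alleles overlap, which held for all 97 genes. The rule used the means of these same values.

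**Figure D3:**
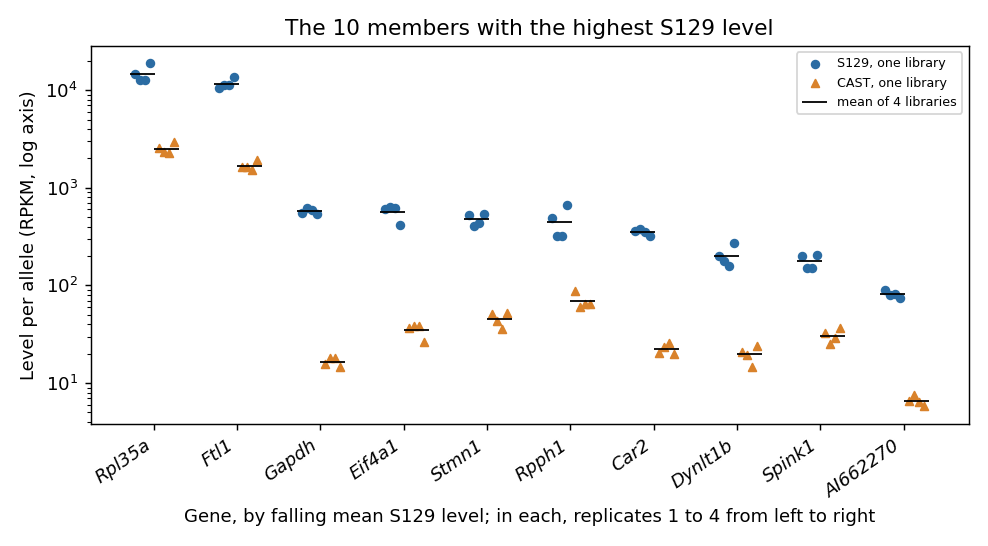
Level of each allele in each of the 4 libraries, in RPKM on a log axis, for the 10 S129-biased genes with the highest S129 level. Blue circles are S129, orange triangles are CAST, and black lines are the means of 4 libraries. The alleles are apart in every gene, from 85.2% for Spink1 to 97.2% for Gapdh, and in Rpph1 the S129 points spread more than in its neighbours on the plot, from 319 to 673 RPKM.

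Several of the highest genes belong to families with near-identical copies elsewhere in the genome. Annotated transcripts of other genes that matched a gene's own transcript over at least 150 bases at 95% identity or more were found for 22 of the 97 genes (22.7%), against 11.6% of all genes with at least 2 RPKM. The match covered at least 50% of the transcript, here called a near copy, for 14 (14.4%), against 3.67% of all. Among genes of at least 100 RPKM, a match was found for 6 of the 9 biased genes (66.7%) and for 20.6% of all. Genes with the same bias towards CAST had near copies in 20.0% and a match in 32.9%. The part of misplaced reads in the shares was not tested.

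The copies were of different kinds. Rpl35a had 14 near copies and Ftl1 had 5, among them Ftl1-ps1 on chromosome 13 with 99.6% identity over 94.0% of the transcript. For Gapdh, 140 other genes held a match and none covered 50% of the transcript used. This was the long transcript that keeps an intron, so a copy without the intron can miss the limit of 50%. Whether Gapdh has near copies is thus not decided here. Dynlt1b was matched by Dynlt1c over its whole transcript at 99.4% identity, and both Dynlt1c and Dynlt1f were listed at 0, so the values of this family are uncertain. Dynlt1a, the next expressed gene, leaned the other way, with a share of 28.3% ± 1.16. Pseudogenes stood beside their parents with other shares. Rpl32l had a share of 96.8%, while the parent Rpl32, a ribosomal protein gene of 11802 RPKM on both alleles, had 52.9%. Gm9057 had 90.6% against 59.4% for Ube2l3, a ubiquitin-conjugating enzyme. Gm10046 had 97.8% against 57.0% for Zfp60.

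Coding stretches of 60 bases are shown for example pairs, each stretch picked to differ from the copy at only a few bases. The number of differences in them was thus set by the choice and is not a result. The stretches are from GENCODE M21 transcripts of the reference strain, and capitals mark the bases at which the pair differs. Eif4a1 and the processed pseudogene Gm5513 on chromosome 19 were 96.5% identical over 68.8% of the transcript.
Eif4a1: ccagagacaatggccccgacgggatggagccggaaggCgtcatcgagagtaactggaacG
Gm5513: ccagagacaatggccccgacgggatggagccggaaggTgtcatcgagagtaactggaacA
Mettl7a3 and Mettl7a1, neighbouring genes for methyltransferase-like proteins on chromosome 15, were 95.7% identical over 76.7%.
Mettl7a3: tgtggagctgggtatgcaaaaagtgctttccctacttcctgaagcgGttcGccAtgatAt
Mettl7a1: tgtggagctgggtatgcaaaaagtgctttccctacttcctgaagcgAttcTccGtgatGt
Mettl7a3 had 1.66 to 2.77 RPKM from S129 and 0.111 to 0.407 RPKM from CAST, a share of 91.4% ± 4.0. Mettl7a1, 6267 bp away, was higher on CAST, with a mean of 27.5 RPKM against 4.69 RPKM from S129 and a share of 14.6% ± 1.8. The third gene of the family, Mettl7a2, was below 2 RPKM and had a share of 83.6% ± 4.3.

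Most genes beside the biased genes were not strongly biased, but as a set they leaned to S129. For the 92 autosomal genes, the nearest gene with at least 2 RPKM on each side was taken, which gave 182 neighbours that were not biased genes themselves. Their median share was 52.2%, with quartiles of 47.2% and 62.7%, and 133 of them (73.1%) were between 35% and 65%. Of all autosomal genes with at least 2 RPKM, 85.7% were in this range. Their median was 49.6%, with quartiles of 44.7% and 54.5%, so the neighbours' upper quartile was the higher one. This difference was not tested. Among the neighbours, 2 reached 85% (1.10%). The 1.07% of all autosomal genes at this level includes the biased genes, which were left out of the neighbours. These 2 values therefore cannot be compared. Of the biased genes, 32 overlapped another gene of the table, and 15 overlapped a gene with at least 2 RPKM. Over these 15, the share of the overlapped gene, or the median where there were several, had a median of 57.1%.

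Examples show how abruptly the share could change along a chromosome. Gapdh (97.2%) overlaps Iffo1 with 49.9% ± 1.7 and lies 1540 bp from Ncapd2 with 58.3% ± 0.49. Eif4a1 (94.2%) lies between Cd68 (43.6%), a marker of macrophages, and Senp3 (56.9%), a SUMO protease, at distances of 783 and 692 bp. Myo1f, a myosin of blood cells, had 95.6% and stood between Adamts10 (48.3%) and Zfp414 (49.9%). Pon2, a lactonase, had 87.8%, while Pon3 beside it had 63.7% and Asb4 on the other side had 39.4%.

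Other neighbours had shares above 70%, of which only some are given here. Kirrel2 (97.8%) lies 625 bp from Nphs1, the gene of the kidney adhesion protein nephrin, which had 8.54 to 11.7 RPKM from S129, 0.0309 to 0.231 RPKM from CAST and a share of 98.8%, just above the rule. Gm5086 (92.4%) is next to Lncenc1 (99.8%), a non-coding RNA of 206 RPKM. These were the 2 neighbours at or above 85%. Platr7 (85.8%), a pluripotency-associated transcript, stood between Ckap4 with 70.7% and Tcp11l2 with 73.0%. Car3 beside Car2 had 76.1% ± 1.8, Cd38 beside Bst1 had 71.8% ± 1.6, and both of these pairs encode related enzymes. A pair of biased genes stood side by side only once, on chromosome 8, where Rbmxl1 (91.7%) and Ttc29 (88.3%) were 110943 bp apart.

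**Figure D4:**
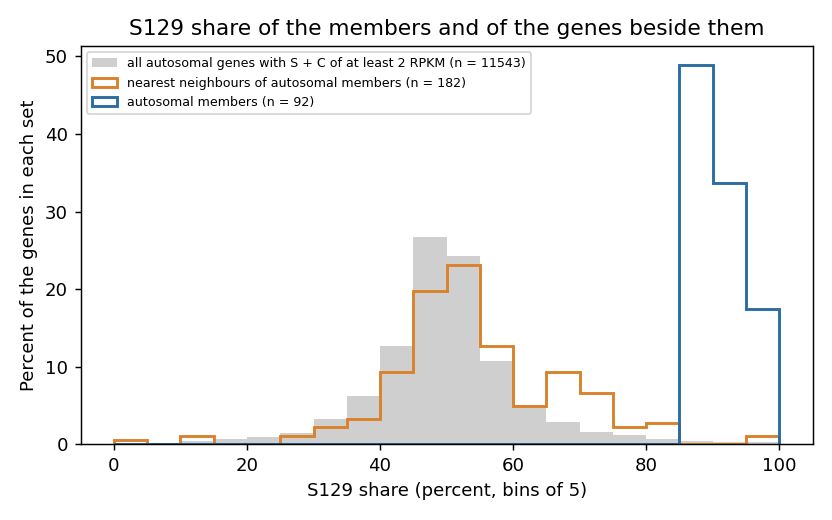
S129 share in bins of 5 percentage points, as percent of the genes in each set. Blue is the 92 autosomal S129-biased genes, orange the 182 nearest expressed genes beside them and grey all 11543 autosomal genes with at least 2 RPKM. The neighbours peak where all genes do, near 50%, but their upper quartile is higher, at 62.7% against 54.5%. The biased genes fill the bins from 85% upward, as the rule set.

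Genes of the lists for gene families and cell types were few among the 97, and only 0.812% of all genes with at least 2 RPKM met the rule. The list of maternally expressed imprinted genes held 30 genes with at least 2 RPKM, and Pon2 was the only biased gene. It had 5.94 to 7.79 RPKM from S129 and 0.795 to 1.18 RPKM from CAST. Of these 30 genes, 18 were higher on S129 and 6 on CAST by limma on the differences within libraries, with an adjusted p under 0.05. The list's median share was 54.4%. Among 22 paternally expressed genes, 2 were higher on S129 and 14 on CAST, with a median of 45.6%, and none was a biased gene. In the whole table, 32.4% of the 11946 genes were called higher on S129 and 33.4% higher on CAST. All 97 biased genes were called higher on S129 with log2 differences of 2.27 to 6.07, from which nothing follows, since the rule used this contrast.

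The snoRNA DQ267102 is the biased gene inside the Dlk1-Dio3 imprinted domain, where it lies within Rian. It had 61.3, 37.3, 44.1 and 56.7 RPKM from S129 and 0, 1.13, 2.35 and 0.831 RPKM from CAST, which rest on 7 CAST reads in all. Rian had a share of 81.9% ± 0.56, Meg3 80.5% ± 0.78 and Mirg 77.0% ± 0.41, each below the limit of the rule. Several of the miRNAs left out by symbol lie in the same domain with shares inside the limits. Among them were Mir300 (93.2%), Mir409 (89.3%), Mir376c (88.3%) and Mir654 (85.1%), on 11 to 48 CAST reads each, while Mir882 had 72.7%.

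On the X chromosome, a male line has the S129 copy alone, and 391 of 398 genes had a share above 98%, with a median CAST share of 0.0621%. The 5 X-linked genes within the rule were 3 of the Xlr family, Piga and Wnk3. Their reads called CAST cannot come from a CAST X chromosome of this line, and where they come from was not tested. Wnk3, a kinase that regulates ion transport, had 17.0, 15.2, 16.2 and 16.4 RPKM from S129. Its reads called CAST gave 1.68, 1.31, 1.27 and 1.58 RPKM, on 712 reads. Its share of 91.7% ± 0.81 was the lowest of the 5. Piga, which starts the synthesis of GPI anchors, had 32.0 to 41.0 RPKM from S129 and 0.546 to 1.89 RPKM called CAST. The Xlr genes lie in a cluster of near-identical copies, and Xlr4a (97.9%), Xlr3c (97.1%) and Xlr4b (95.5%) rested on 16, 31 and 11 CAST reads. Neighbours of the 5 genes had shares of 98.9% or more.

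Zinc finger genes, which encode transcription factors, made up 318 of the genes with at least 2 RPKM, and 3 of them were biased. Zfp981 had 27.1 to 33.2 RPKM from S129 and 1.90 to 2.501 RPKM from CAST, Zfp28 had 6.96 to 8.66 and 0.780 to 1.01 RPKM, and the transcribed pseudogene Zfp783 had 1.64 to 2.41 and 0.211 to 0.267 RPKM. Of 17 glutathione S-transferases, which conjugate glutathione to toxic compounds, Gsta3 was biased, with 18.96 to 23.6 RPKM from S129 and 2.96 to 4.42 RPKM from CAST. The family's median share was 39.8%. Slc1a1, a glutamate transporter, was 1 of 198 solute carriers, with a share of 89.0% ± 3.3. Nlrp9b was 1 of 5 measured genes of the Nlrp and Naip family, with 20.4 to 27.1 RPKM from S129 and 1.45 to 1.98 RPKM from CAST, and its sister genes Nlrp9a and Nlrp9c had sums of 0.0058 and 0.100 RPKM. No gene was biased among 17 embryonic stem cell markers, 4 primitive endoderm markers, 20 genes of MHC class I presentation, 18 interferon response genes and 15 cytochrome P450 genes. At the share of 0.812% over all genes with at least 2 RPKM, lists this small would mostly hold none. The counts for zinc finger genes and solute carriers are also near that share. Gene models without a name were more frequent, with 10 of 166 Gm and 13 of 380 Rik symbols.

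A share of the remaining genes is known for other tissues, chosen here after their values were seen. Of genes that act in the germ line, Stag3, the meiotic cohesin subunit, had 10.5 to 13.4 RPKM from S129 and 1.75 to 2.21 RPKM from CAST. Psma8, a proteasome subunit of spermatocytes, had 13.8 to 16.1 and 1.70 to 2.23 RPKM, and Piwil4, a protein of the piRNA pathway, had 1.18 to 2.51 and 0.246 to 0.371 RPKM. Of related genes, Stag1 had a share of 44.6% ± 2.0, the X-linked Stag2, at 0.229 RPKM on both alleles, had 99.3% ± 1.2, and Psma7 had 46.7% ± 1.2. Genes known from blood cells included Nckap1l, a regulator of actin, with 5.51 to 6.85 RPKM from S129 and 0.135 to 0.183 RPKM from CAST, and Siglecf, Ccl8 and Tnfsf12, with mean S129 levels of 1.84, 1.94 and 3.27 RPKM. Hnf4a had 12.8, 14.6, 11.9 and 10.9 RPKM from S129 and 0.666, 1.23, 1.37 and 0.555 RPKM from CAST, a share of 92.9% ± 2.6. Among genes of neurons, Cabp1, a calcium sensor, had 92.8% and Grik3, a kainate receptor, had 87.6%. Metabolic enzymes included Aass of lysine breakdown with 89.6% ± 1.5 and Phkg1, a subunit of phosphorylase kinase, with 89.2% ± 5.4.

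Of the non-coding genes, a few are given here with the genes they overlap or stand beside. Chrna1os, annotated as antisense and 4512 bp from the acetylcholine receptor subunit gene Chrna1, had 95.3% ± 3.8 on 7 CAST reads, while Chrna1 had 80.4% ± 2.5. Pla2g10os had 85.8% ± 2.9 and the phospholipase gene Pla2g10, which it overlaps, had 76.5% ± 1.4. Both genes of this pair lie on chromosome 16, and Pla2g10os was the other gene that left the rule once the ratio was divided by the median of its autosome. Srrm4os had 9.13 to 14.0 RPKM from S129 and 1.16 to 2.17 RPKM from CAST. Among the long intergenic RNAs, Platr26 had 18.98, 14.4, 15.5 and 15.1 RPKM from S129 and 1.40, 1.90, 0.660 and 2.15 RPKM from CAST, and 1110019D14Rik had 45.1 to 49.5 and 5.67 to 6.96 RPKM.

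**Figure D5:**
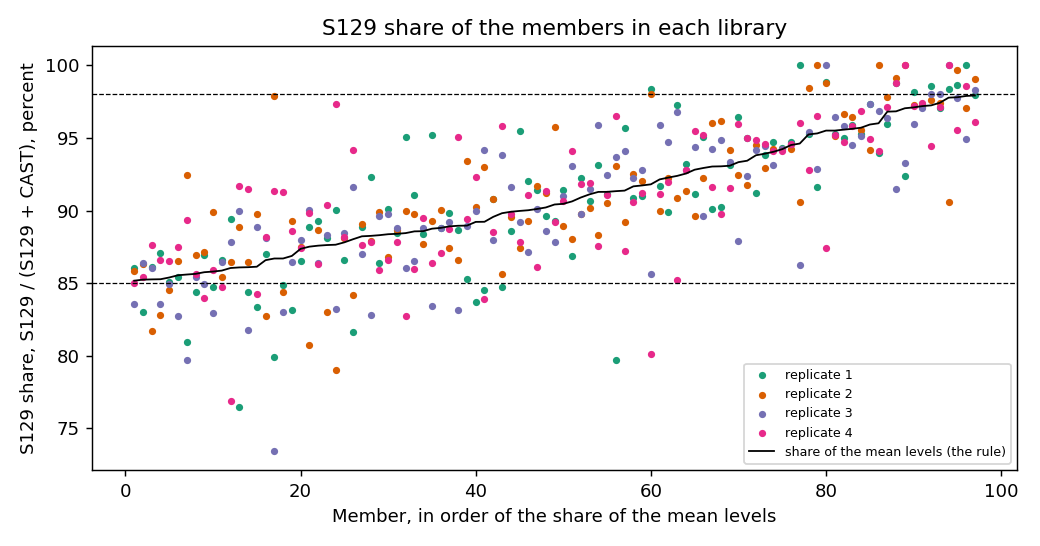
S129 share of the 97 biased genes in each library, in percent, with genes in order of the share of their mean levels, which is the black line. Coloured points are replicates 1 to 4 and the dashed lines are the limits of 85% and 98%. Single libraries range from 73.4% to 100%, and 69 of the 388 points lie outside the limits.

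How steady the share was between libraries depended on the number of CAST reads. Over the 4 libraries, the genes had 5 to 149922 CAST reads, with a median of 78. The SD of the share had a median of 1.00 percentage points in the 40 genes with at least 100 CAST reads and of 3.59 points in the 57 genes with fewer. Over all 97 genes it was 2.16 points, against 1.71 points for all genes with at least 2 RPKM. In 49 genes the rule was met in every library. The largest SD was 11.01 points for 4930455G09Rik, an antisense RNA with 20 CAST reads, and Spata45 followed with 9.10 points. A further 7 genes had no CAST read in at least 1 library, where 3 CAST reads would have been 2.36% to 8.82% of the gene's S129 reads.

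Whether the share of a gene differed between libraries by more than counting error does not depend on the rule, which used means. A chi-square test of 1 ratio of S129 to CAST reads in all libraries, with Benjamini-Hochberg adjustment over all genes tested, called 12.3% of 11323 genes and 12 of the 76 biased genes that had enough reads (15.8%). This is near the share over all genes. Sequencing was paired-end, and whether reads or fragments were counted is not given in the sources used here. If both reads of a fragment were counted, they entered this test as if they were independent. The test can in that case call too many genes, among all genes and among the 12. The 12 included the strongly expressed Rpl35a, Ftl1, Stmn1, Rpph1 and Car2. The others were Piga, Platr26, Gm32688, Cfap74, 4930590L20Rik, Gm15290 and Rhbg. Rhbg, an ammonium transporter, had shares of 90.04%, 79.0%, 83.2% and 97.3%, and Gm15290 had 79.7% in replicate 1 and 93.1% to 96.5% in the rest. With each pair of reads counted as 1, 68 of 11174 genes (0.609%) and 3 of 61 biased genes remained, which were Ftl1, Rpl35a and Rpph1. Without replicate 4, the test called 422 of 11386 genes (3.71%) and 4 of 77 biased genes, namely Car2, Ftl1, Rpl35a and Stmn1.

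At the limits of the rule the shares ran on without a gap. Just inside the lower limit were Spink1 with 85.17%, Capsl with 85.24% and Kbtbd6 with 85.26%, and just outside were Irak3 with 84.88%, Zfp607b with 84.81% and Gm10069 with 84.80%. At the upper limit, Xlr4a with 97.92%, DQ267102 with 97.88% and Kirrel2 with 97.80% were inside, and Rtl8b with 98.13%, Rhox4g with 98.28% and Ywhah with 98.28% were outside. Among autosomal genes, 17 were above 98%, among them Lncenc1 and Nphs1. Leaving out 1 library changed which genes passed. Without replicate 4, 92 genes met the rule and 83 of the 97 were among them, and the 14 lost included Rpl35a, Rpph1, Gsta3 and Piga. Without replicate 1, 2 or 3, 91, 89 and 91 of the 97 stayed.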

How the data were processed

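The authors trimmed reads with Trimmomatic 0.40, removed ribosomal reads, aligned them with STAR to mm10 with strain SNPs masked and split them by allele with SNPsplit. The deposited RPKM per gene, library and allele are reads divided by gene length and by the total of that allele and library. Counting program and annotation version are not given in the sources used here. The deposited averages and log10 columns were not used.

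Members were found from mean RPKM. The members, lists and named genes (52 members: the highest by each allele, those with the largest and smallest SD of the share, those nearest the limits, members of a list and adjacent members) were chosen with earlier results of these data known, and other genes named were chosen after their values were seen. Whole reads, within 0.02 of a whole number, were recovered from the RPKM for 99.5% of genes above 0. Alleles were compared by limma 3.58.1 on log2(RPKM + 0.1), with both alleles of a library as a pair, since they come from the same cells. Fold changes on this scale understate changes of low genes. Libraries were compared by a chi-square test of recovered reads, with Benjamini-Hochberg adjustment. Both tests were also run on simulated data with known changes. For the chi-square test the simulated reads were independent, so this could not show overcalling where reads are not. Counting limits cover counting error only. Positions and transcripts came from GENCODE M21 (23995 genes matched), near copies from BLAST 2.17.0 and promoters from RefSeq. R 4.3.3 and Python 3.11.15 were used. Alternatives changed the pseudocount, the minimum level, the mean, the centring and the libraries used.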

Additional observations from a re-analysis of the deposited data

Results flagged for a closer look

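Of 104 quantities in the named genes (S + C and the S129 share), 8 had 1 library far from the other 3 by Dixon's test, against 5.2 from chance, which gives about 1 in 20. In 6 of the 8 this was replicate 4. S + C of Eif4a1 was 442 RPKM in replicate 4 and 643 to 667 RPKM in the others. It was 33.7 RPKM against 56.2 to 60.6 RPKM for Rbmxl1 and 6.73 RPKM against 8.65 to 8.81 RPKM for Pon2. Replicate 4 was higher for 1810063I02Rik, with 22.1 RPKM against 15.6 to 16.6 RPKM, for Gm10046, with 7.36 RPKM against 2.77 to 3.41 RPKM, and for Gm13029, with 6.09 RPKM against 2.95 to 3.17 RPKM. Nlrp9b had 22.4 RPKM in replicate 1 and 27.7 to 28.8 RPKM in the others. The S129 share of Rpl32l was 91.5% in replicate 3 and 98.8% to 99.1% in the others.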

How the results depend on the processing

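The rule gave 97 genes, and 92 to 98 when 1 library was left out. It gave 49 when met in every library, 42 with S + C of at least 10 RPKM and 349 without a minimum. The median S129 share of 90.4% was 90.5% to 90.9% with 1 library left out. The median S + C of 7.65 RPKM became 3.84 RPKM with a minimum of 1 RPKM, 24.6 RPKM with a minimum of 10 RPKM, and 7.56 to 7.84 RPKM with 1 library left out. With both alleles of a library as a pair, limma called 3876 genes higher on S129 and 3985 higher on CAST, and without this pairing (no replicate block) 2959 and 2906. Leaving out 1 library gave 3331 to 3720 and 3298 to 3814. The chi-square test called 1393 genes, 68 with the reads halved and 422 to 1234 with 1 library left out, with 775 without replicate 1 and 422 without replicate 4. The cause was not tested. Of 312 alternative values of the 52 named genes, 311 moved by less than 1 SD, and the share of Eif4a1 from whole reads moved by more. Most of the 312 values left out 1 library and were set against the SD of the full set of libraries. Such values could hardly move by 1 SD, so the count is no measure of steadiness. In alternatives chosen after seeing the data, near copies at 90% identity were found for 17.5% of the biased genes, and the median of the promoter start richest in CG was 7.5. The planned count model on recovered reads is not reported, since count models were kept for deposited counts. Genes with few CAST reads limit the precision.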
